A study of Mus musculus with 2 samples.

Results

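Kupffer cells and other liver macrophages made up 573 of the 10384 barcodes with at least 1500 unique molecular identifiers (UMIs) and 750 genes in 2 mouse liver endothelial preparations, of which 148 came from the control library and 425 from the Maf LSEC-KO library. They were selected on measured values: the summed UMIs of Adgre1, Csf1r, Clec4f, Vsig4 and Cd5l had to reach 5 and to exceed the summed UMIs of the endothelial genes Cdh5, Kdr and Ptprb. Levels of these 8 genes therefore describe the selection and are no finding. The barcodes that met the rule are called members below.

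Kupffer cells are the resident macrophages of the liver and lie in the sinusoids, attached to liver sinusoidal endothelial cells (LSECs). They clear bacteria, aged erythrocytes and cell debris from portal blood, recycle iron from haem, and are long-lived cells of embryonic origin that monocytes can replace after injury. Signals from LSECs and stellate cells, among them Notch and TGF-β family ligands, help to maintain their identity genes.

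Both libraries were made by 3′ single-cell RNA sequencing of cells enriched with beads against CD146, an endothelial surface protein, and each came from 1 pool of livers from 3 mice. Maf LSEC-KO mice carried Clec4g-iCre tg/wt and Maf fl/fl, so that the recombinase was driven by an LSEC promoter. Controls, labelled WT, were littermates without the Cre transgene that carried Maf fl/fl or Maf fl/wt, and neither the age nor the sex of the mice in these 2 pools is given in the labels. With 1 library per condition there is no replicate spread and no test was possible: every difference below compares 2 libraries, and intervals are 95% intervals that cover counting error only.

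Of the barcodes past both minima, 2.98% of 4961 in the control library were members (exact Clopper-Pearson interval 2.53 to 3.50) and 7.84% of 5423 in the Maf LSEC-KO library (7.14 to 8.58). The CD146 enrichment was meant to yield endothelial cells, so these are shares of what passed it and not of the liver, and a different number of macrophages in the tissue cannot be told apart from a different yield of the isolation. Control members had a median of 4952 UMIs and Maf LSEC-KO members 5101, and the medians of endothelial barcodes were 8709 and 14815. No barcode sequence was shared between the members of both libraries, while 10 were shared among all deposited barcodes. Near the limit of the rule, 7 control and 26 Maf LSEC-KO members had 5 to 7 macrophage UMIs, and 7 and 32 further barcodes had 3 or 4 with fewer endothelial UMIs.

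Genes that the rule did not use were checked against the label. The 15 genes with the highest level in members relative to endothelial barcodes of the same library, taking the smaller ratio of both libraries, were Clec4f, Cd5l, Vsig4 and Csf1r of the rule together with C1qa, C1qb and C1qc (the chains of complement C1q), Lyz2 (lysozyme), Ctss and Ctsc (lysosomal proteases), Cybb (the NADPH oxidase subunit), Mpeg1 (perforin-2), Laptm5, Lpl (lipoprotein lipase) and Wfdc17. C1qa had 5934 counts per 1000000 UMIs (CPM) in control and 5079 CPM in Maf LSEC-KO members, against 13.3 and 16.6 CPM in endothelial barcodes. CPM is relative to the UMIs of all genes outside mitochondrial and ribosomal protein genes.

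To show the start of 2 of these genes, the 250 bases before the RefSeq transcription start of C1qc and Ctsc are given 5′ to 3′ on the gene's strand. Capitals mark a match, here on the opposite strand, to GAGGAAGT, a PU.1-type element. PU.1, the product of Spi1, is a transcription factor of the macrophage lineage.
C1qc (GRCm38.p6, chr4:136892915-136893164, minus strand): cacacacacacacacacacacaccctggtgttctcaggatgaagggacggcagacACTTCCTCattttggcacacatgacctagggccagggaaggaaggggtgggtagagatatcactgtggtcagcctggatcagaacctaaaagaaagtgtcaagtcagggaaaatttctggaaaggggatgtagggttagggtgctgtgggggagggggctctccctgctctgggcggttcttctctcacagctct
Ctsc (GRCm38.p6, chr7:88277835-88278084, plus strand): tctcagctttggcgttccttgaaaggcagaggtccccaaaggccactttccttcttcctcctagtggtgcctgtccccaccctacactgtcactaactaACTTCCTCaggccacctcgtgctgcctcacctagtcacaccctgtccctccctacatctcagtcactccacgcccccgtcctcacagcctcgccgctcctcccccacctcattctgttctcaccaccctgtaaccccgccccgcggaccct

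The match began 195 bases before the start of C1qc and 151 bases before that of Ctsc. Of the 15 leading genes 12 had a RefSeq promoter entry, and GAGGAAGT on either strand was found between 250 bases before and 50 bases after the start in 3 of them, C1qc, Ctsc and Ctss, compared with 3.69% of all 27025 genes with an entry. This element was chosen for display after the results of all 5 elements searched had been seen. Of the other 4, the shorter form AGGAAGT, contained in it, matched in 5 of the 12 genes (10.7% of all genes). The other shorter form, GAGGAAG, matched in 6 of the 12 (15.4% of all genes). The core of a Maf recognition element, TGCTGAC, matched in 0 of the 12 (5.28% of all genes), as did the AP-1 element TGACTCA (5.95%). A match describes these letters only, and binding was not measured.

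**Figure D1:**
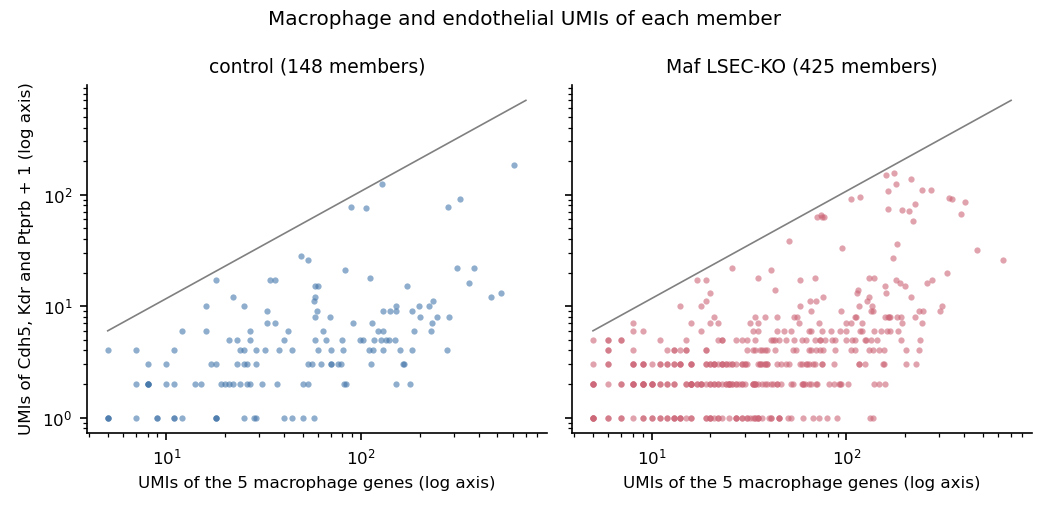
Each point is 1 member, with the summed UMIs of Adgre1, Csf1r, Clec4f, Vsig4 and Cd5l on the x axis and the summed UMIs of Cdh5, Kdr and Ptprb plus 1 on the y axis, both on log axes, and the line is the limit of the rule. The median was 53.0 macrophage and 3.0 endothelial UMIs in the 148 control members and 35.0 and 2.0 in the 425 Maf LSEC-KO members, and some members in each library lie close to the line.

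Members also carried RNA of endothelial genes, and more of it in the Maf LSEC-KO library. The 14 endothelial genes used as a check, none of them in the rule, summed to 1015 CPM in control and 1531 CPM in Maf LSEC-KO members, which is 10.8% and 16.1% of their level in endothelial barcodes. In stricter members, with at least 10 macrophage UMIs and 5 times as many macrophage as endothelial UMIs (113 and 330 barcodes), it was 4.52% and 7.26%. Fixed lists of endothelial genes were also compared in members. Of 5 tested genes of the list that is high in Maf LSEC-KO endothelium, 3 were at least 2-fold higher, beside 2.09% of all tested genes. Of 9 tested LSEC genes, 3 were at least 2-fold lower, beside 0.721% of all tested genes, and 2 were above 0 on the log2 scale. Ly6c1, for instance, had 0 UMIs in control and 306 in Maf LSEC-KO members, and its endothelial level was 11.8 and 583 CPM. Ratios in stricter members or levels in endothelial barcodes are given below beside several genes.

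Of 3884 genes with at least 50 CPM and 20 UMIs in the members of at least 1 library, 81 were at least 2-fold higher in Maf LSEC-KO members (2.09%) and 28 at least 2-fold lower (0.721%), and the median log2 ratio over all of them was 0.11. Of the 81 higher genes, 26 had a level in Maf LSEC-KO members at least 2 times that in the endothelial barcodes, and 9 of the 28 lower genes had this in control members. The split towards higher genes, 74.3% of all called genes, was 64.3% with median-of-ratios scaling, 83.3% in stricter members, 88.1% when members were scaled to 16 pan-macrophage genes and 85.7% when the member with the most UMIs of each gene was left out, the last 2 chosen after seeing the data.

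Among the 5 genes of the rule, 4 were lower in Maf LSEC-KO members. Clec4f, a Kupffer cell lectin (chr6:83644542-83656187, GENCODE M21, mm10), was at 5182 CPM in control and 3495 CPM in Maf LSEC-KO members. Cd5l, a secreted scavenger protein, was at 4117 and 3015 CPM, Vsig4, a receptor for complement C3 fragments, at 1936 and 1432 CPM, and Csf1r, the CSF1 receptor, at 1534 and 1268 CPM. Adgre1, which encodes F4/80, was at 520 and 678 CPM. These levels were used to choose the members.

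Kupffer cell identity genes outside the rule moved in both directions. Of 16 such genes, all above the minimum, 1 was at least 2-fold higher (Vcam1) and 1 at least 2-fold lower (Lyve1), beside 2.09% and 0.721% of all tested genes. The list median of the log2 ratio was -0.05 in all and 0.09 in stricter members, beside 0.11 and 0.12 over all tested genes. Lyve1 is also an LSEC gene, and its log2 ratio of -1.01 was 0.74 in stricter members.

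The genes lower in Maf LSEC-KO members included receptors of resident Kupffer cells. Folr2, a folate receptor (chr7:101839988-101857194), was at 1004 CPM in control and 506 CPM in Maf LSEC-KO members, a log2 ratio of -0.99 (interval -1.11 to -0.87). Cd163, the haemoglobin-haptoglobin receptor (chr6:124304656-124330527), was at 352 and 180 CPM, with a log2 ratio of -0.97 (-1.17 to -0.77) that was -0.67 in stricter members. Timd4, which binds phosphatidylserine on dying cells (chr11:46810800-46844332), was at 428 and 274 CPM (log2 ratio -0.64, -0.81 to -0.47). C6, a component of the terminal complement pathway, was at 621 and 400 CPM (log2 ratio -0.64, -0.78 to -0.49). All 4 stayed lower under the 12 other settings of processing that were planned.

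The share of members with a UMI of these genes gave the same order of the libraries. When each member was thinned to 2100 UMIs (9 shallower members of the control and 38 of the Maf LSEC-KO library dropped out), Timd4 was found in 44.6% of control and 33.3% of Maf LSEC-KO members, compared with 69.6% and 58.8% before thinning. Folr2 was found in 60.4% and 47.5% of thinned members and Cd163 in 31.7% and 15.8%. In thinned endothelial barcodes none of these genes was found in more than 0.409%.

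Other Kupffer cell genes were higher. Vcam1, an adhesion molecule (chr3:116109949-116129688), was at 315 CPM in control and 737 CPM in Maf LSEC-KO members, a log2 ratio of 1.23 (1.05 to 1.40) that was 1.21 in stricter members. Its endothelial level was also higher, at 265 against 116 CPM. Hmox1, haem oxygenase 1 (chr8:75093621-75100589), was at 562 and 1110 CPM (log2 ratio 0.98, 0.85 to 1.11), while its endothelial level was 40.0 and 37.6 CPM. Marco, a scavenger receptor for bacteria (chr1:120474538-120505024), was at 179 and 342 CPM (0.93, 0.70 to 1.17), and 0.64 in stricter members. Spic, a factor required for iron-recycling macrophages, was at 133 and 209 CPM (0.64, 0.37 to 0.93).

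**Figure D2:**
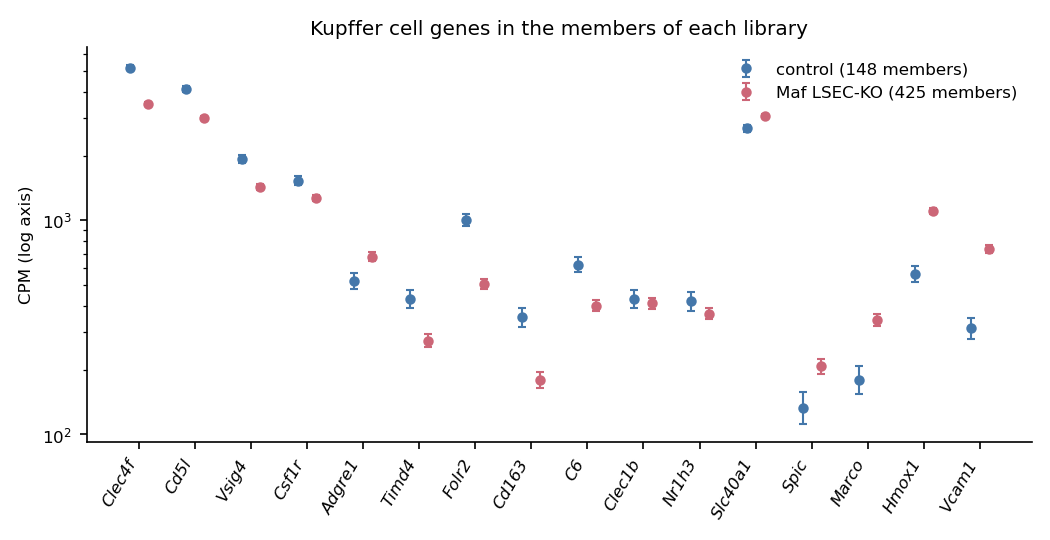
CPM, on a log axis, of the 5 genes of the rule and 11 further Kupffer cell genes in control (148) and Maf LSEC-KO members (425), with bars for the exact Poisson 95% interval of the count. Folr2, Cd163, Timd4 and C6 lie lower in Maf LSEC-KO members, for example Folr2 at 506 against 1004 CPM, and Vcam1, Hmox1, Marco and Spic lie higher.

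Genes of iron handling did not move together. Of 10 tested, 0 were 2-fold higher and 0 were 2-fold lower, with a median log2 ratio of 0.08. Fth1, the ferritin heavy chain, was at 4578 CPM in control and 6590 CPM in Maf LSEC-KO members (log2 ratio 0.53, 0.48 to 0.57). Slc40a1, the iron exporter ferroportin, was at 2697 and 3076 CPM (0.19, 0.13 to 0.25).

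Among 16 pan-macrophage genes 1 was at least 2-fold higher and 0 were 2-fold lower, beside 2.09% and 0.721% of all tested genes. The list median of the log2 ratio was -0.18, beside 0.11 over all tested genes. The higher gene was Ms4a7 (chr19:11321039-11336146), at 96.8 CPM in control and 251 CPM in Maf LSEC-KO members, a log2 ratio of 1.38 (1.07 to 1.70). It had at most 0.641 CPM in endothelial barcodes, and 43 of 148 control and 191 of 425 Maf LSEC-KO members had a UMI. Spi1 was at 535 and 412 CPM (-0.38, -0.53 to -0.23).

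Genes of lipid-associated macrophages, which surround lipid and dying hepatocytes in steatotic liver, had the highest median log2 ratio among the lists of macrophage genes. Of 10 tested genes 4 were at least 2-fold higher and 0 were 2-fold lower (2.09% of all tested genes were higher), and the median log2 ratio was 0.55, beside 0.11 over all tested genes. The list was chosen with earlier results known, so its count is a description. Trem2, a lipid-sensing receptor (chr17:48346401-48354147), was at 69.3 CPM in control and 174 CPM in Maf LSEC-KO members (log2 ratio 1.33, 0.96 to 1.71, and 1.54 in stricter members). Trem2 was found in 8.63% of control and 21.7% of Maf LSEC-KO members after thinning, and in at most 0.114% of thinned endothelial barcodes. The endothelial level of Trem2 was 0.234 and 0.738 CPM.

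The other 3 genes of this list past 2-fold were Mmp12, Cd63 and Fabp5. Fabp5, a fatty acid binding protein, was at 92.7 and 263 CPM but at 657 and 1399 CPM in endothelial barcodes, and its log2 ratio was 1.51 in all and 1.30 in stricter members. Cd63, a lysosomal tetraspanin, was at 22.4 and 87.8 CPM, with endothelial levels of 32.5 and 183 CPM, and had 4 and 122 UMIs in stricter members. Mmp12, macrophage elastase, had 5 UMIs in control and 309 in Maf LSEC-KO members, and 1 member held 56.3% of the latter. Apoe, a lipid carrier, was at 13073 and 16822 CPM (log2 ratio 0.36, 0.34 to 0.39), and Ctsd, a lysosomal protease, at 1901 and 2703 CPM (0.51, 0.44 to 0.58). Lgals3 was at 563 and 531 CPM, with an interval of the log2 ratio, -0.23 to 0.06, that includes 0. Gpnmb and Spp1 did not reach the minimum.

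Genes of a further list, of lipid transport, moved in both directions. Of 10 tested, 4 were above 0 on the log2 scale. At least 2-fold higher was 1 and 0 were 2-fold lower, beside 2.09% and 0.721% of all tested genes. The higher one was Scd2, with 59 UMIs in control and 404 in Maf LSEC-KO members. The list median of the log2 ratio was -0.10 in all and 0.06 in stricter members. Apoc1 was at 2915 CPM in control and 2005 CPM in Maf LSEC-KO members (-0.54, -0.60 to -0.47). Pltp, the phospholipid transfer protein, was at 735 and 486 CPM (-0.60, -0.73 to -0.47). Abca1, the cholesterol exporter, was at 239 and 323 CPM (0.43, 0.23 to 0.65).

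Of 12 tested genes for chemokines 3 were at least 2-fold higher and 1 was 2-fold lower (2.09% and 0.721% of all tested genes). The higher ones were Ccl8, Pf4 and Cxcl2 and the lower one Ccl5. Ccl6 was at 589 and 376 CPM (log2 ratio -0.65, -0.79 to -0.50), and Ccl24, a chemokine for eosinophils, was at 316 and 194 CPM (-0.70, -0.91 to -0.50). Pf4 was at 71.3 and 177 CPM (1.31, 0.95 to 1.69), although 1 Maf LSEC-KO member held 18.1% of its UMIs. Ccl8 had 8 and 245 UMIs in 2 and 7 members, and the log2 ratio of 3.39 was -0.03 without members over 3 times the median UMIs. Cxcl2 had 23 UMIs in 3 control and 158 in 14 Maf LSEC-KO members, 1 of which held 86.7% of the latter, and the log2 ratio of 1.23 was -1.83 in stricter members. Ccl5 had 266 and 159 UMIs, of which 1 member held 49.2% and 35.2%.

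Of 13 tested genes for receptors and targets of the niche signals, 11 were above 0 on the log2 scale, as were 2559 of all 3884 tested genes. At least 2-fold higher was 1 and 0 were 2-fold lower, beside 2.09% and 0.721% of all tested genes. The list median was 0.29 in all members and 0.06 in stricter members, beside 0.11 and 0.12 over all tested genes. Tgfbr1, a TGF-β receptor, was at 107 CPM in control and 217 CPM in Maf LSEC-KO members (1.02, 0.72 to 1.33). Id1, a target of BMP signalling, was at 81.5 and 112 CPM, and its log2 ratio of 0.46 was 0.00 in stricter members. Id3 was at 497 and 485 CPM in members and at 884 and 975 CPM in endothelial barcodes, and its log2 ratio was -0.04 in all and -0.41 (-0.59 to -0.23) in stricter members.

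RNA of the targeted gene Maf was found in the members of both libraries, which the Cre driver was not meant to reach. Maf (chr8:115682942-115707794) was at 1247 CPM in control and 1308 CPM in Maf LSEC-KO members, a log2 ratio of 0.07 (-0.02 to 0.16), while endothelial barcodes had 3404 and 94.4 CPM. The log2 ratio was 0.38 in stricter members and 0.65 after an endothelial profile was subtracted.

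Lysosomal and efferocytosis genes gave small median log2 ratios, 0.06 over 17 and 0.20 over 14 tested genes. In each list 1 gene was at least 2-fold higher and 0 were 2-fold lower, beside 2.09% and 0.721% of all tested genes. The higher efferocytosis gene was Cd36. This scavenger receptor was at 246 and 575 CPM, and endothelial barcodes had 1099 and 1915 CPM. Its log2 ratio was 1.22 in all and 1.11 in stricter members. Mertk and Axl, receptors for dying cells, were at 296 and 397 CPM and at 483 and 597 CPM.

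For complement, 0 of 14 tested genes were 2-fold higher or lower and the median log2 ratio was -0.23. Cfp, properdin, was at 1064 and 768 CPM (-0.47, -0.58 to -0.36). C1qa, C1qb and C1qc had log2 ratios of -0.22, -0.29 and -0.19. For the interferon response, 0 of 15 tested genes were 2-fold higher or lower, with a median of -0.08. Of these 15 genes 7 were above 0 on the log2 scale, up to 0.79. Among the lower ones, Ifi27l2a was at 2041 and 1441 CPM (-0.50, -0.58 to -0.42) and Irf7 at 691 and 570 CPM. Mki67 and Top2a, genes of dividing cells, had UMIs in 20 and 12 control and in 61 and 50 Maf LSEC-KO members, and intervals of the log2 ratio of -0.31 to 0.40 and -0.58 to 0.16.

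**Figure D3:**
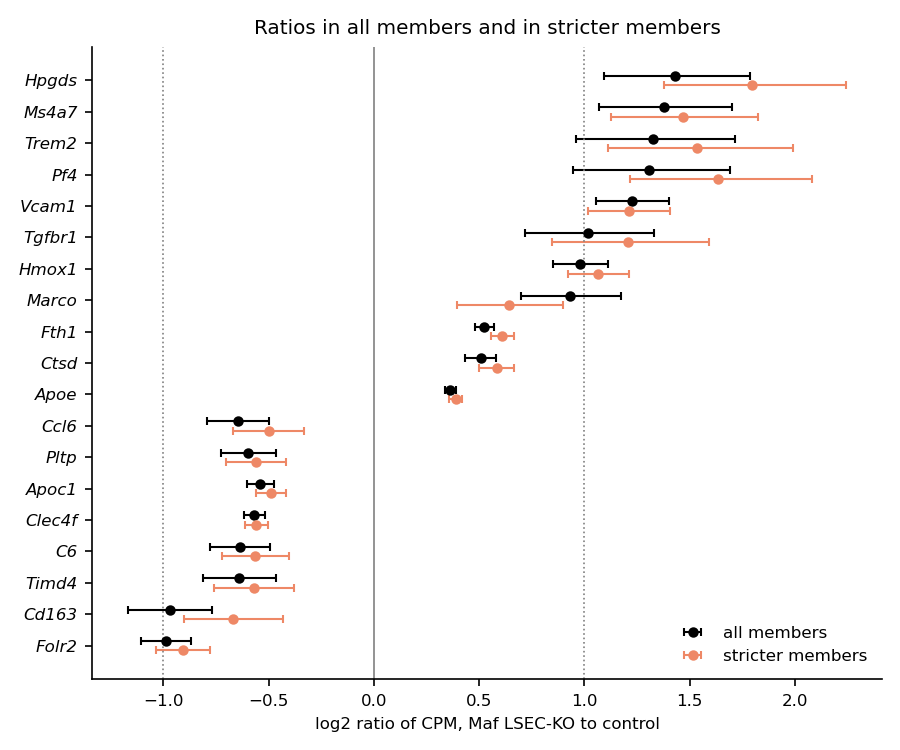
Log2 ratio of CPM in Maf LSEC-KO against control members, with exact 95% intervals for counting error, for 19 genes in all members (black) and in stricter members (orange). Dotted lines mark 2-fold. Each of the 19 genes lies on the same side of 0 in both sets, and Cd163 and Marco move most towards 0 in stricter members, to -0.67 and 0.64. Clec4f is a gene of the rule, so its place in both sets describes the selection.

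Members differed in whether they carried Kupffer-restricted genes. At least 3 UMIs of Clec4f, Vsig4 and Cd5l together were found in 138 of 148 control members (93.2%, 87.9 to 96.7) and in 393 of 425 Maf LSEC-KO members (92.5%, 89.5 to 94.8). These 3 genes belong to the rule, so both shares describe the selection and no comparison of the libraries is drawn from them. The other 10 and 32 members reached the rule mainly through Adgre1 and Csf1r. Their median depth was 5844 and 11868 UMIs, compared with 4846 and 4696 in the members with at least 3. The 10 and 32 members are called members without Kupffer genes below, although some carried fewer than 3 of these UMIs. At least 1 UMI of the 3 genes was found in 143 of 148 control and 401 of 425 Maf LSEC-KO members.

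Members without Kupffer genes had high levels of monocyte and antigen presentation genes that the rule did not use. Ccr2, the receptor that brings monocytes into tissue, was at 926 CPM in these control members and at 343 CPM in these Maf LSEC-KO members, while all members with Kupffer genes together held 9 and 8 UMIs of it. Ly6c2 was at 1334 and 914 CPM, compared with 31.6 and 1.16 CPM. Plac8 was at 3986 and 2056 CPM, compared with 265 and 166 CPM, and Lyz2 at 20430 and 12513 CPM, compared with 4404 and 3074 CPM. H2-Aa, an MHC class II chain, was at 4221 and 6735 CPM, compared with 919 and 891 CPM. Conversely, C1qa was at 439 and 1913 CPM, compared with 6315 and 5440 CPM. Only 4 of the 10 and 17 of the 32 members without Kupffer genes had a Ccr2 UMI, so they were not uniform.

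**Figure D4:**
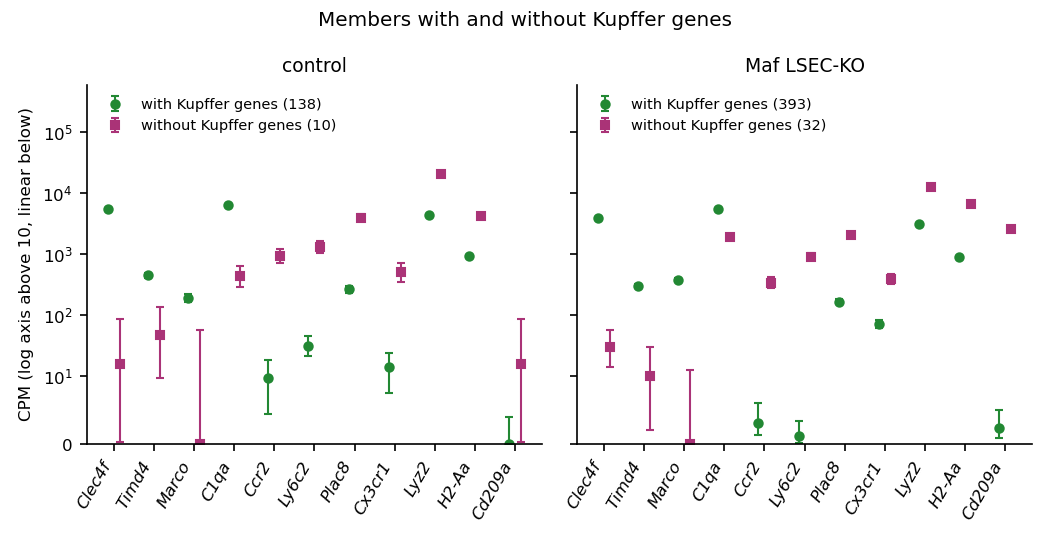
CPM of 11 genes, with exact Poisson 95% intervals, in members with (circles) and without (squares) at least 3 UMIs of Clec4f, Vsig4 and Cd5l, by library. The axis is logarithmic above 10 and linear below. Ccr2, Ly6c2, Plac8, Lyz2 and H2-Aa are higher without Kupffer genes in both libraries, and Cd209a reached 2630 CPM in the 32 Maf LSEC-KO members without these genes.

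Several of the largest ratios rested on UMIs of members without Kupffer genes. Cd209a, a lectin of monocyte-derived dendritic cells, had 1 UMI in control and 780 in Maf LSEC-KO members, in 1 and 16 members, a log2 ratio of 8.06 (5.58 to 13.36). Members with Kupffer genes held 0 and 6 of these UMIs. Mcemp1 had 24 and 510 UMIs in 5 and 33 members, and its log2 ratio of 2.86 was -0.68 among members with Kupffer genes, which held 4 and 7 of these UMIs. For MHC class II, 0 of 7 tested genes were 2-fold higher or lower with a median log2 ratio of 0.29, and the median was -0.04 among members with Kupffer genes. H2-Eb1 was at 711 and 1162 CPM in all members and at 484 and 570 CPM in members with Kupffer genes.

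By contrast, the ratios of Folr2, Timd4, Hmox1, Vcam1, Trem2 and Ms4a7 were -0.98, -0.58, 1.04, 1.28, 1.35 and 1.33 on the log2 scale among members with Kupffer genes, and Cd163 was at 374 and 187 CPM there. Cx3cr1, the fractalkine receptor of monocytes and of some tissue macrophages, was at 46.8 and 106 CPM in all members (log2 ratio 1.18, 0.73 to 1.66), in 13 and 59 members. Among members with Kupffer genes Cx3cr1 was at 14.2 and 72.9 CPM, in 7 and 38 members.

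Further genes named by size of the ratio were found in many members. Hpgds, prostaglandin D synthase, was at 80.5 CPM in control and 217 CPM in Maf LSEC-KO members (log2 ratio 1.43, 1.09 to 1.79), in 48 and 198 members. Bach2os and Amz1 had log2 ratios of 1.43 and 1.32, and lay in 19 and 16 control and in 113 and 102 Maf LSEC-KO members. On the lower side, Emilin2 was at 109 and 50.2 CPM (-1.12, -1.49 to -0.75), Ms4a8a at 72.3 and 28.9 CPM (-1.32, -1.80 to -0.85) and Ifi205 at 94.7 and 46.7 CPM (-1.02, -1.41 to -0.62).

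For others, 1 member held a large part of the UMIs or few members had any. Serpinb1a had 142 UMIs in control and 4 in Maf LSEC-KO members, and 1 control member held 99.3% of the former. Retnla had 57 and 2 UMIs, all 57 in 1 control member. Dcn, a stellate cell gene, had 12 and 246 UMIs, of which 1 Maf LSEC-KO member held 73.6%. Fcer2a had 0 and 187 UMIs, at least 4.41 higher on the log2 scale with 3 UMIs as the floor for control, and 17 members carried it. In lymphocyte barcodes Fcer2a was at 130 and 2287 CPM. These barcodes had under 5 macrophage and under 5 endothelial UMIs, and at least 5 UMIs of B, T and NK cell genes. Hist1h2ap had 131 and 167 UMIs, and 1 control member held 71.8% of the former. Cenpe and Cks2 had 58 and 80 UMIs in control members, of which 1 member held 39.7% and 33.8%, and Ly6i had 86 in 4 control members.

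Markers of other cell types were low but not equal. Of 8 hepatocyte genes none was at 0 in members, and they summed to 815 CPM in control and 1020 CPM in Maf LSEC-KO members. Trf alone held 548 of their 800 UMIs in control and 1540 of 2930 in Maf LSEC-KO members. Of 4 tested hepatocyte genes, 3 were at least 2-fold higher, beside 2.09% of all tested genes. Alb was at 94.7 and 231 CPM in members and at 53.2 and 26.5 CPM in endothelial barcodes. The 9 T and NK cell genes summed to 97 UMIs in control and 15 in Maf LSEC-KO members, the 7 B cell genes to 37 and 273, the 7 neutrophil genes to 71 and 303 and the 8 stellate cell genes to 31 and 413. The 5 basophil and mast cell genes were at 0 in both. The part of these cells in the differences was not tested.

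The mixed barcodes, 80 of the control library and 144 of the Maf LSEC-KO library, had at least 5 macrophage UMIs but no more than endothelial UMIs and were not members. Relative to 1000 UMIs of C1qa, C1qb and C1qc, Folr2 was at 81.0 UMIs in control and 36.4 in Maf LSEC-KO mixed barcodes (log2 ratio -1.15, -1.50 to -0.80). Cd163 was at 32.8 and 8.03 (-2.03, -2.68 to -1.39), and Timd4 at 35.1 and 18.9 (-0.90, -1.41 to -0.36). The pan-macrophage genes outside C1q, except Ms4a7, were also below 0 on this scale, from -1.44 for Mertk to -0.18 for Lyz2. A ratio below 0 in mixed barcodes was therefore not particular to Folr2, Cd163 and Timd4. Ms4a7 was at 7.64 and 19.8 (1.37, 0.44 to 2.47). Trem2 had 3 UMIs in control and 107 in Maf LSEC-KO mixed barcodes. Hmox1 and Marco gave intervals that include 0, from -0.18 to 0.47 and from -0.23 to 0.97. Ratios per C1q UMIs are on another scale than the CPM ratios given above. On this scale, the log2 ratios in members were -0.75 for Folr2, -0.73 for Cd163 and -0.40 for Timd4. They were 1.61 for Ms4a7, 1.22 for Hmox1 and 1.17 for Marco. The mixed barcodes come from the same 2 pools and are no replicate of them.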

How the data were processed

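The authors deposited raw UMI counts, unnormalized whole numbers, of 32285 genes in 5664 control and 7091 Maf LSEC-KO barcodes, and the submitters' notes name Cell Ranger 6.0.2 and Seurat 5.0.1. Members and gene lists were chosen with earlier results of these data known. UMIs were summed over members (981811 and 2871588 outside mitochondrial and ribosomal protein genes) and divided to CPM with Python 3.11.15, numpy 2.4.6 and scipy 1.17.1. Ratios have exact conditional binomial intervals, and the scripts were tested on simulated data. Genes with 50 CPM and 20 UMIs in at least 1 library were compared. The text names genes of 36 fixed lists, the 12 largest and 12 smallest ratios among genes at least 2 times above endothelial level, and 15 leading genes with a pseudocount of 5 CPM. Endothelial barcodes had 5 UMIs of Cdh5, Kdr and Ptprb and under 5 macrophage UMIs. Doublets were kept, 10 control and 26 Maf LSEC-KO members having the highest Scrublet scores (scanpy 1.11.5), and were left out as an alternative. TMM factors came from edgeR 4.0.16 in R 4.3.3, which was used for scaling only. Some items are not reported here.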

Additional observations from a re-analysis of the deposited data

How the results depend on the processing

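No paired analysis was possible because each condition has 1 library, and for the same reason no replicate could be left out. The member share was 2.28% and 6.09% for stricter members, 2.35% and 6.76% without barcodes over 10% mitochondrial UMIs, and 6.95% in the Maf LSEC-KO library with at least 10 macrophage UMIs. Of genes at least 2-fold higher or lower there were 14 and 4 with at least 200 CPM, 1215 and 596 with no minimum beyond 3 UMIs, and 26 and 9 among genes at least 2 times above endothelial level; 17 were lower in stricter members, and 156 higher when scaled to pan-macrophage genes, where the median log2 ratio was 0.30 against 0.11. Stricter members carried Kupffer genes in 97.3% and 96.1% and had 427 and 689 CPM of endothelial RNA, which over the UMIs of all genes was 861 and 1266 CPM in all members. Of the genes past 2-fold that the text names, Mcemp1 reversed to -0.68 among members with Kupffer genes, Lyve1 to 0.74 and Cxcl2 to -1.83 in stricter members, Cxcl2 to -1.66 with at least 10 macrophage UMIs and to -0.48 without its top member, Ccl8 to -0.028 without members over 3 times the median UMIs, and Hist1h2ap to 0.33 without these, to 0.074 as a mean over members and to 0.16 without its top member; the cause was not tested. Values that rest on a count of 0 in 1 library were not read for direction. The scaling to pan-macrophage genes, the top-member alternative and the endothelial and 10% filters on genes were chosen after seeing the data. Depth limits genes under 20 UMIs in the 148 control members.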
